A study of Mus musculus with 12 samples.

Results

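Cystatin F, cystatin C, 4 cathepsins, a lysosomal membrane protein and the lysosomal acid lipase were followed across a mouse hippocampal microarray series. The 8 genes (Cst7, Cst3, Ctsb, Ctsd, Ctsh, Ctss, Lamp2 and Lipa) were taken by annotated gene symbol, which gave 13 of the 12422 probe sets that are not controls. They were chosen by their measured differences between induced and never-induced hippocampus, over time, and between CA1 of induced and wild-type mice, with those results known, so their values in those comparisons are descriptions and carry no test. One Ctsb probe set was never brighter than the median of its own array, and the other 12 members were among the 7069 probe sets that entered the linear model.

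The study asked which genes change in the hippocampus when VP16-CREB, a fusion that makes the transcription factor CREB active at all times, is switched on in transgenic mice (called VC mice), in which doxycycline (dox) keeps the transgene off. Hippocampal samples came from VC mice 1 week (2 arrays), 2 weeks (2 arrays) and 5 weeks (1 array) off dox, from VC mice that expressed the transgene for 3 weeks and were then put back on dox for 2 weeks (reversed, 1 array), and from never-induced animals (1 array of VC mice on dox and 2 of wild-type mice kept under the same conditions). CA1, a field of pyramidal neurons, was microdissected from VC mice after 3 weeks without dox (2 arrays) and from wild-type mice (1 array). Each hippocampal sample pooled 6 to 10 mice, so an array stands for a pool, and the spread between arrays is a spread between pools. The pool size of the CA1 samples, and the promoter and cell type that drive the transgene, are not stated in the labels. The reversed sample has a title naming VC mice and a description naming wild type, and it forms a separate group here.

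Lysosomal cathepsins are proteases that take apart proteins delivered to the lysosome, and cystatins are inhibitors that block the cysteine cathepsins. Cystatin C is secreted, whereas cystatin F is unusual in being sent to endosomes and lysosomes, and is made mainly by immune cells. In the brain, microglia, the resident macrophages, hold much of the lysosomal machinery, and cystatin F has been described in microglia of demyelinating and neurodegenerative tissue.

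The promoters of 3 members are shown because these genes had higher values late after induction and because their start regions carry known motifs. Cst7 and Ctss share a motif. Each sequence is the RefSeq GRCm38.p6 window from 250 bases before to 50 bases after the annotated start, on the gene's own strand, and the capitals mark motif matches. Cst7 lies at chr2:150570165-150570464 (plus strand), Ctsd at chr7:142387778-142388077 (minus strand) and Ctss at chr3:95526536-95526835 (plus strand).
Cst7: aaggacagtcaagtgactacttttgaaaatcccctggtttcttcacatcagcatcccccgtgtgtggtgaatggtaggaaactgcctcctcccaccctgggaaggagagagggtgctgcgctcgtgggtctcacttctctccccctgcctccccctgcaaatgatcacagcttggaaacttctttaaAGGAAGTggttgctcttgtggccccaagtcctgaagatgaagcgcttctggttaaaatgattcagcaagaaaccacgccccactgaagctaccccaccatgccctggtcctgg
Ctsd: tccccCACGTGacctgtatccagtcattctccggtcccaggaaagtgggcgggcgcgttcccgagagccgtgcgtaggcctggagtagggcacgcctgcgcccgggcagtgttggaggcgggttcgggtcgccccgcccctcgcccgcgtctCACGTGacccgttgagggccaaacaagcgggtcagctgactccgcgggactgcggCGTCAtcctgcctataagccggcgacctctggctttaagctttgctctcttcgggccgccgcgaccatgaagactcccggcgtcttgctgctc
Ctss: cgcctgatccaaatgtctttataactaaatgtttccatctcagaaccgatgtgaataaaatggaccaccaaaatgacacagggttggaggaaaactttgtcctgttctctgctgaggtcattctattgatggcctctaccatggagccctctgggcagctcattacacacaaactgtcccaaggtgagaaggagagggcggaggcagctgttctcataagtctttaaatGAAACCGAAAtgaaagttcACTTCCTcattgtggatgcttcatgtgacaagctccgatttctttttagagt
Windows were found for 6 of the 8 genes (Cst7, Cst3, Ctsd, Ctss, Lamp2 and Lipa). After the sequences had been seen, 5 motifs were searched on both strands, namely the cAMP response element bound by CREB (TGACGTCA), its shorter core (TGACG, which lies within the full element), the E-box found in many lysosomal promoters (CACGTG), a purine-rich motif of ETS factors such as PU.1, a macrophage factor (AGGAAGT), and the core of the interferon-stimulated response element (2 runs of GAAA with any 2 bases between them). The full cAMP response element was in 0 of the 6 windows and in 1.79% of all 32851 windows. Its shorter core was in 2 (Ctsd, on the reverse strand, and Lipa) and in 20.8% of all windows. The E-box was in 1 of the 6, Ctsd, which held it at -245 to -240 and again at -98 to -93 from the start, and in 7.15% of all windows. AGGAAGT was in 2, Cst7 at -63 to -57 and Ctss on the reverse strand at -2 to 5, and in 9.35% of all windows. The interferon element core was in 1, Ctss at -21 to -12, and in 3.44% of all windows. The windows of Cst3 and Lamp2 held no match. A match is a description of letters in this window, not a binding site.

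**Figure D1:**
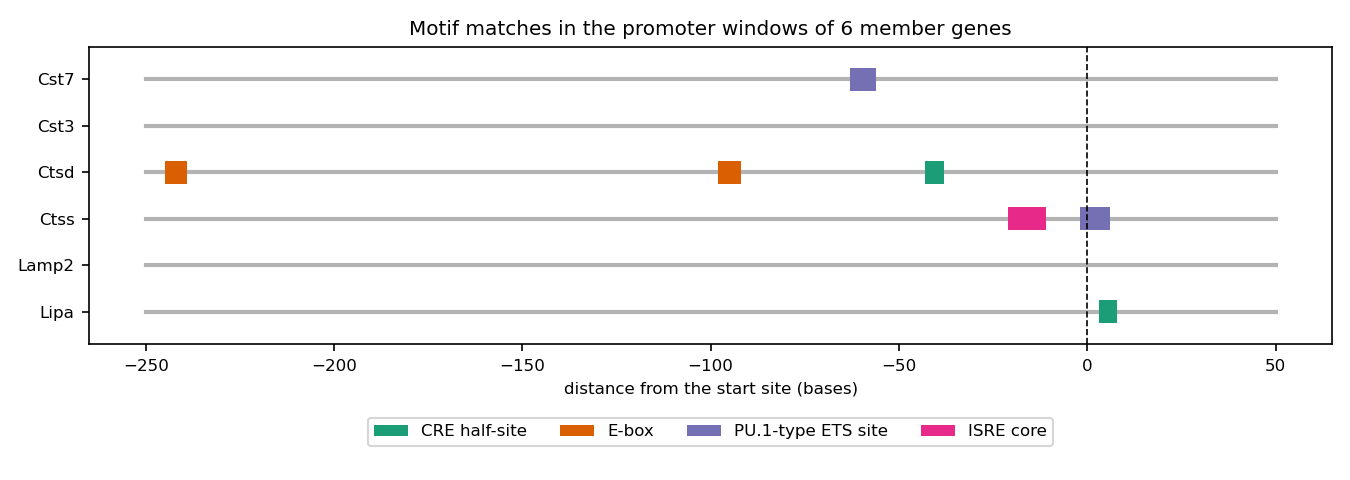
Motif matches in the promoter windows of the 6 member genes that have one, one line per gene, with distance from the annotated start in bases on the horizontal axis and the dashed line at the start. Cst7 and Ctss carry the ETS-type motif, Ctsd the E-box at 2 places, and Cst3 and Lamp2 none of the 5 motifs.

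The deposited intensities had 2 scales. The 2% trimmed mean was 500.3 to 500.4 on 4 arrays (the first wild-type hippocampus and the 3 CA1 arrays) and close to 3002 on the other 8, and all arrays were rescaled to a trimmed mean of 1000 (scaled intensity). Values under 65.7, the 20th percentile of all scaled values, were treated as floor and have no order among themselves. Arrays correlated at 0.93 to 0.98 within hippocampus, 0.91 to 0.95 within CA1 and 0.83 to 0.92 between them, on the log2 scale. The neuronal markers Snap25 and Syt1 were above the floor in every group. CA1 and whole hippocampus were compared within each region first, because all CA1 arrays share the lower deposited scale. Differences are given below as log2 units ± SE from one limma model over all 12 arrays, in which groups with 1 array borrow the spread of the replicated groups.

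Cst7, the lysosomal cystatin, was at or near the floor before and early after induction and then among the probe sets with the largest differences. Its scaled intensity was 43.2 and 67.9 in wild-type hippocampus and 75.4 in VC mice on dox. After 1 week of induction it was 66.7 and 20.4, after 2 weeks 490.2 and 1385, after 5 weeks 2882, and on the reversed array 797. The CA1 values were 1768 and 1997 in VC mice 3 weeks off dox, against 53.0 in wild-type mice. The 6 high arrays did not overlap with the other 6, and the probe set entered the model only through those 6. One of the 3 never-induced arrays, 1 of the 2 1-week arrays and the CA1 wild-type array were under the floor, so folds are lower bounds. The late arrays (2 and 5 weeks together) were at least 18.0-fold above never-induced hippocampus and at least 18.9-fold above 1 week. The reversed array was at least 11.5-fold above never-induced hippocampus, and CA1 of VC mice was at least 28.6-fold above CA1 of wild-type mice. These bounds scale with the floor. With the floor at the 40th percentile the log2 differences were 2.44 for late against 1 week (4.24 with the lower floor), 1.79 for reversed against never-induced (3.52) and 3.03 in CA1 (4.84). The log2 difference at 1 week was -0.07 ± 0.36, with both groups at or close to the floor. In bulk samples more cells of a type and more RNA per cell cannot be told apart.

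**Figure D2:**
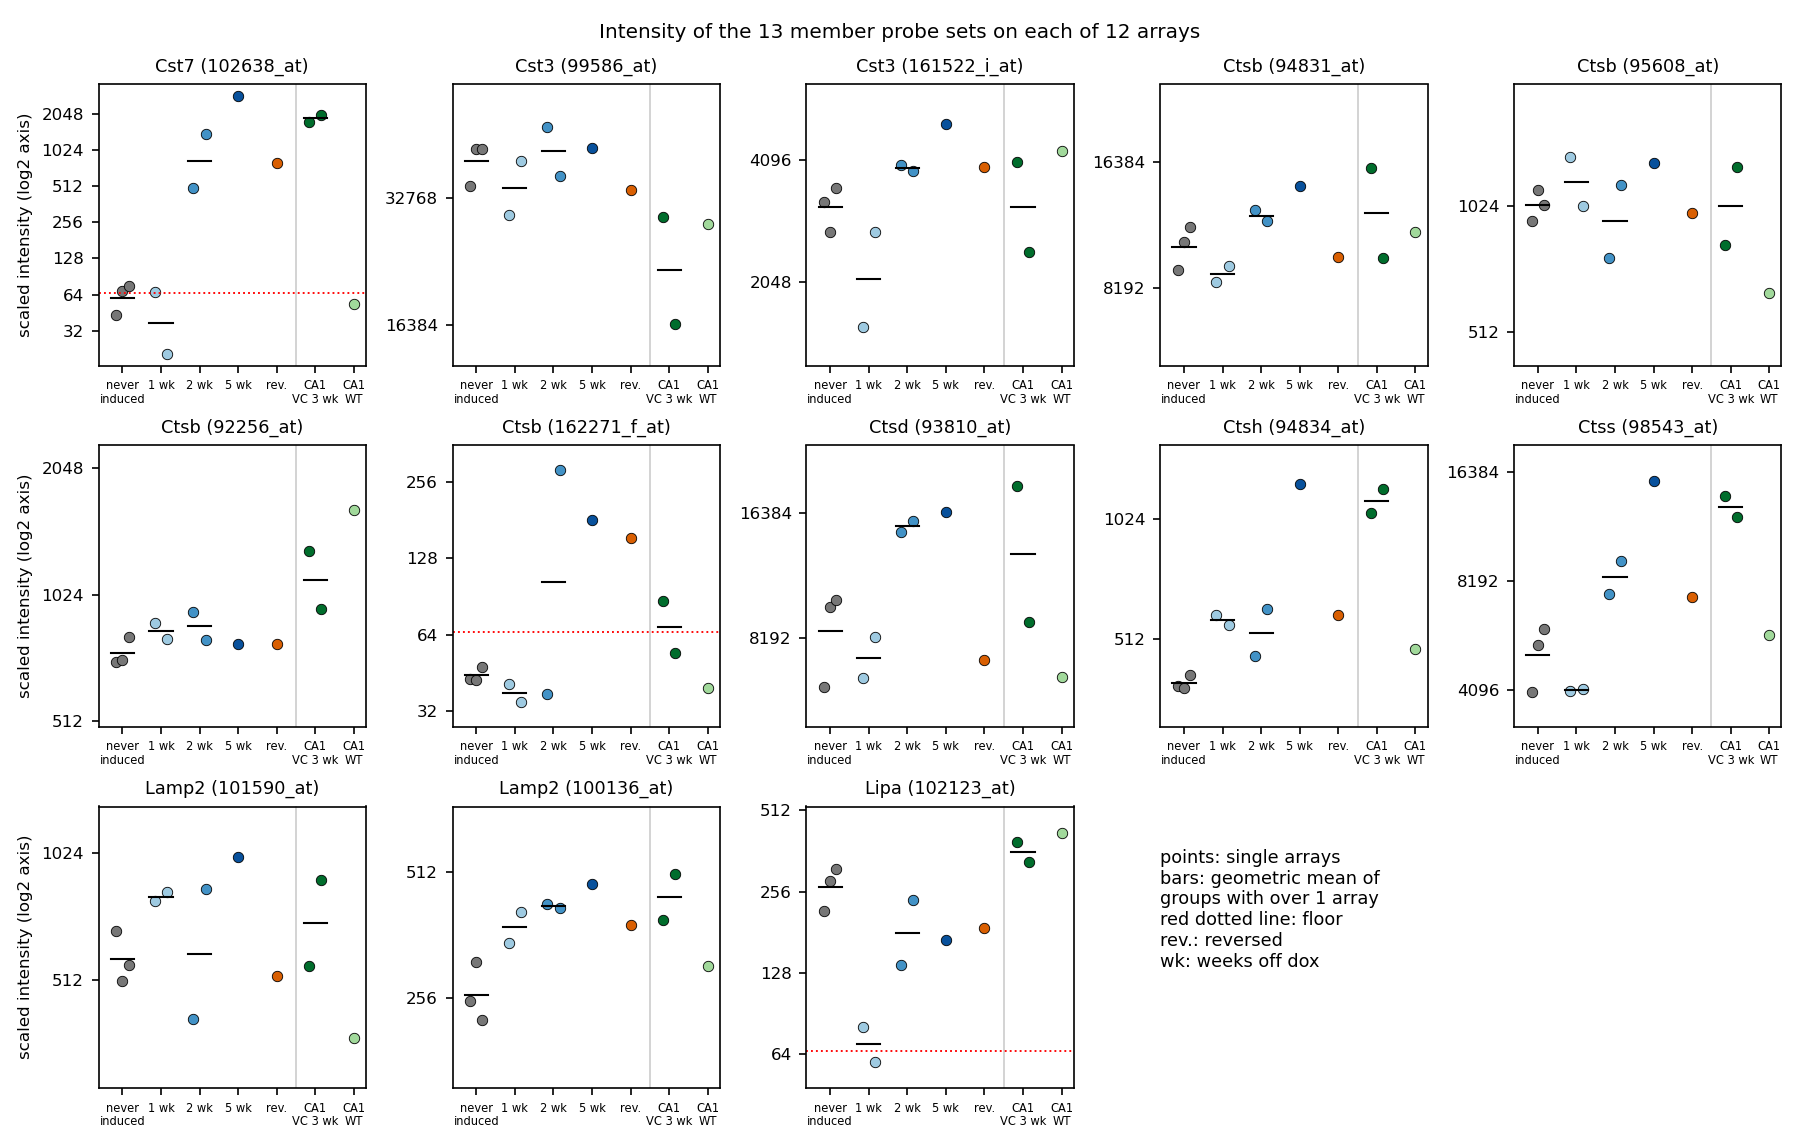
Scaled intensity (log2 axis, a different range in each panel) of the 13 member probe sets on each of the 12 arrays, in time order from never-induced to reversed hippocampus, then CA1. Points are arrays, bars are geometric means of groups with over 1 array, and the red dotted line is the floor. Cst7, Ctsd and Ctss are higher on all 3 late arrays than on every never-induced array, and Lipa is lowest at 1 week.

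Cst3, the secreted cystatin C, was read by 2 probe sets that disagreed. Its brighter one, 99586_at, was 35065, 42970.1 and 42925 on the never-induced arrays, in the order wild type 1, wild type 2 and VC on dox. That probe set was 29878 and 40120.4 at 1 week off dox, 48584 and 37072 at 2 weeks, 43123 at 5 weeks, and 34305 on the reversed array, so the induced and never-induced groups overlapped. The dimmer one, 161522_i_at, was 3231, 2724 and 3494 never-induced, 1592 and 2729 at 1 week off dox, 3978 and 3856 at 2 weeks, 5024 at 5 weeks, and 3939.6 on the reversed array. On this second probe set the late arrays lay above all never-induced and 1-week arrays, 2.04-fold above 1 week (1.03 ± 0.28 in log2). At 1 week the same probe set was -0.59 ± 0.28 against never-induced hippocampus, with 1 array inside the never-induced range and 1 below it. In CA1 neither probe set was higher on both arrays of VC mice: 99586_at was 29617 and 16451 in VC mice and 28518 in wild-type mice, and 161522_i_at was 4039.9 and 2428 in VC mice and 4300.3 in wild-type mice. On both probe sets the second CA1 array of VC mice was the lower one, and without it the differences of -0.37 and -0.46 moved to 0.05 and -0.09.

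Ctss, a cysteine cathepsin of microglia and antigen-presenting cells that trims the invariant chain of MHC class II, was higher on the late arrays, as Cst7 was, by smaller differences. Its scaled intensity was 4050.2, 5455 and 6042 on the never-induced arrays (wild type 1, wild type 2, VC on dox), 4061 and 4113 at 1 week off dox, 7549 and 9306 at 2 weeks, 15494 at 5 weeks, and 7420.3 on the reversed array. In CA1 it was 14009 and 12301 in VC mice and 5809.7 in wild-type mice. All late arrays lay above all never-induced arrays, and the 5-week array lay well above both 2-week arrays. The differences from never-induced hippocampus were -0.32 ± 0.20 at 1 week, 0.71 ± 0.20 at 2 weeks and 1.60 ± 0.26 at 5 weeks, the last a 3.03-fold difference. The late arrays were 2.52-fold above 1 week, and CA1 of VC mice was 2.26-fold above CA1 of wild-type mice (1.18 ± 0.27).

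Ctsh, a cysteine cathepsin that acts mainly as an aminopeptidase, differed from Ctss in its early values. It was 391, 386 and 417 on the never-induced arrays, 588 and 557 at 1 week off dox, 464 and 611 at 2 weeks, 1254 at 5 weeks, and 591 on the reversed array. All 6 hippocampal arrays from mice that had been induced lay above the never-induced arrays, those of 1 week included, while the 1-week and 2-week values overlapped. The difference was 0.53 ± 0.17 at 1 week, 0.42 ± 0.17 at 2 weeks and 1.66 ± 0.21 at 5 weeks, where it reached 3.15-fold. In CA1 it was 1063 and 1223 in VC mice and 483 in wild-type mice, a 2.36-fold difference (1.24 ± 0.22).

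Ctsb, which cleaves both within proteins and from their carboxyl end, was read by 4 probe sets that did not move together. The brightest, 94831_at, was 9019.7, 10509.7 and 11416 never-induced, 8442 and 9255 at 1 week off dox, 12559 and 11793 at 2 weeks, 14362 at 5 weeks, and 9695 on the reversed array. On it the late arrays lay above all never-induced arrays by a small margin, at 0.25 ± 0.22 for 2 weeks and 0.48 ± 0.28 for 5 weeks. The probe sets 95608_at and 92256_at gave 0.33 ± 0.32 and 0.07 ± 0.23 at 5 weeks, with late and never-induced arrays overlapping. The fourth, 162271_f_at, was under the floor on 8 arrays and read 284 on 1 of the 2-week arrays, 181 at 5 weeks, and 153 on the reversed array. The model left it out. In CA1 the 3 tested probe sets pointed in different directions. The brightest was 15816 and 9648 in VC mice and 11128 in wild-type mice, 95608_at was 828 and 1271 in VC mice and 635 in wild-type mice, and 92256_at was 1299.9 and 945 in VC mice and 1628 in wild-type mice. The log2 differences were 0.15 ± 0.30, 0.69 ± 0.34 and -0.55 ± 0.24, so the array gives no single direction for Ctsb in CA1.

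Ctsd, the main aspartic protease of the lysosome, was 6231, 9725 and 10069 on the never-induced arrays, 6526 and 8231 at 1 week off dox, 14749 and 15693 at 2 weeks, 16489 at 5 weeks, and 7246 on the reversed array. The 3 late arrays lay close together and above every never-induced and 1-week array, and the values at 2 and 5 weeks differed little from each other. The late arrays were 2.13-fold above 1 week (1.09 ± 0.33). In CA1 Ctsd was 19067 and 8918 in VC mice and 6589 in wild-type mice, which is 0.98 ± 0.45. This CA1 difference was 1.53 without the second VC array and 0.44 without the first.

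Lamp2, a heavily glycosylated protein of the lysosomal membrane that takes part in autophagy, had 2 probe sets. The dimmer, 100136_at, was 251, 311 and 227 never-induced, 347 and 411 at 1 week off dox, 428 and 418 at 2 weeks, 477 at 5 weeks, and 382 on the reversed array. All 6 induced or reversed arrays lay above the never-induced ones, by 0.53 ± 0.19 at 1 week, 0.70 ± 0.19 at 2 weeks and 0.87 ± 0.24 at 5 weeks. The brighter, 101590_at, was 669.6, 507 and 553 never-induced, 788 and 828 at 1 week off dox, 412 and 842 at 2 weeks, 1005 at 5 weeks, and 523 on the reversed array. Its 2-week arrays were on opposite sides of the never-induced range. In CA1 both probe sets were higher on both VC arrays, with 551 and 887 in VC mice and 372 in wild-type mice for 101590_at, and 394 and 504 in VC mice and 304 in wild-type mice for 100136_at.

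Lipa, the acid lipase that frees cholesterol and fatty acids in the lysosome, read lowest 1 week after induction. It was 217, 279 and 310.0 on the never-induced arrays, 81.2 and 60.2 at 1 week off dox, 137 and 239 at 2 weeks, 169 at 5 weeks, and 189 on the reversed array. The 1-week arrays were the lowest of all 12, and 1 of them was under the floor. With 1 array under the floor and the other close to it, the 1-week level was at most 0.275 of the never-induced level (-1.86 ± 0.27 in the model). With the floor at the 40th percentile the Lipa difference was -0.23. Lipa exceeded the median of its own array on only 2 arrays, the first CA1 array of VC mice and the CA1 array of wild-type mice. In CA1 it was 391 and 329 in VC mice and 423 in wild-type mice.

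**Figure D3:**
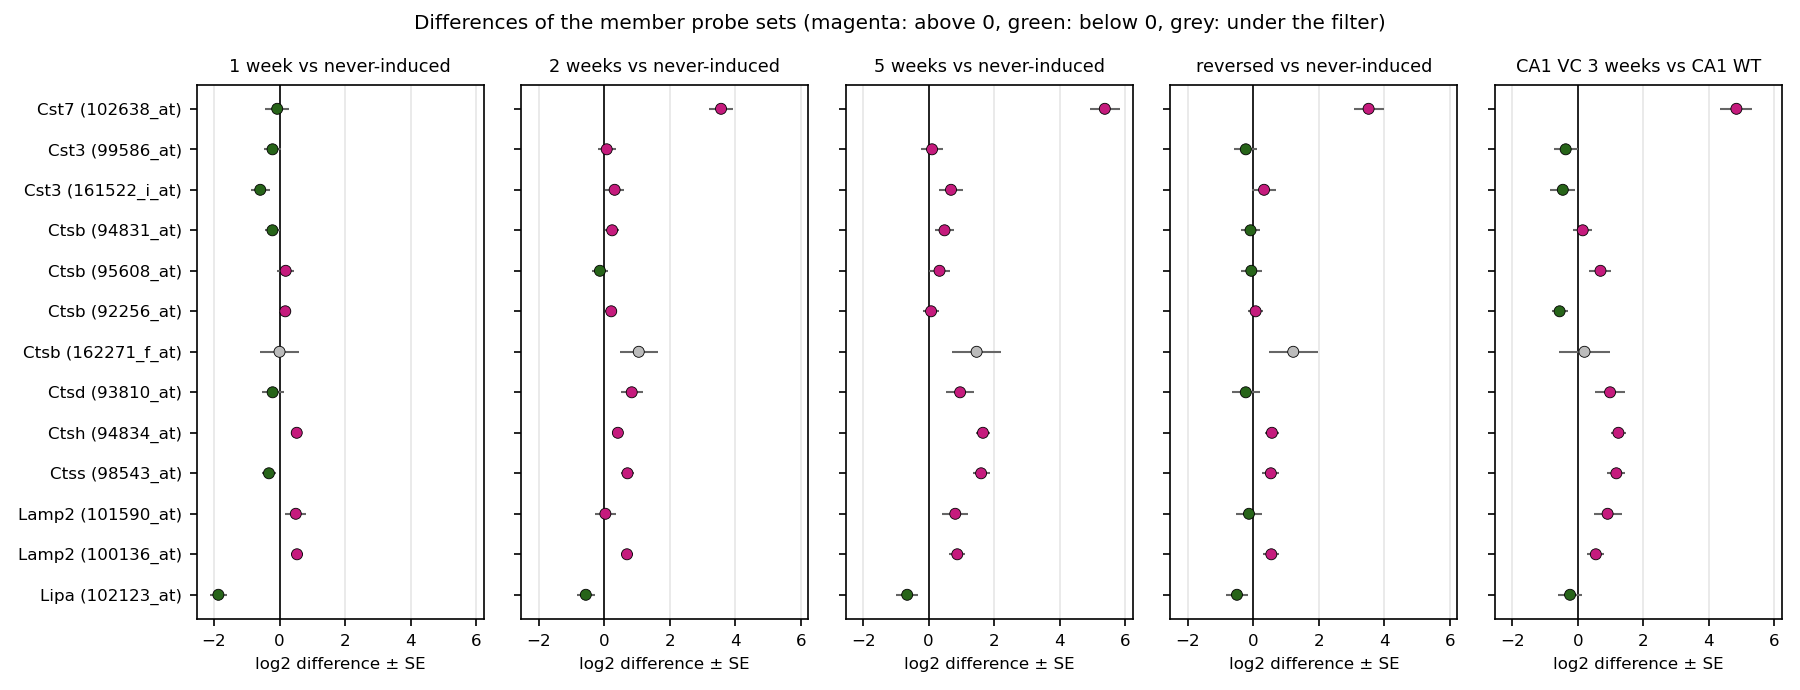
Log2 difference ± SE (horizontal axis) of each member probe set in 5 comparisons, from 1 week against never-induced hippocampus to CA1 of VC mice against CA1 of wild-type mice. Magenta points lie above 0, green points below 0, and grey marks the Ctsb probe set under the filter. Cst7 stands at 3.57 at 2 weeks, 5.37 at 5 weeks and 4.84 in CA1, and Lipa at -1.86 at 1 week.

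Set against all tested probe sets, few differences at 1 week passed an adjusted p of 0.05 in limma. At 1 week 0 of the 12 tested members passed (3 had an unadjusted p under 0.05), and 0.0283% of all tested probe sets passed higher and 0% lower. At 2 weeks 1 member, Cst7, passed higher (0.156% of all, with 0% lower), and at 5 weeks 3 members, Cst7, Ctsh and Ctss, passed higher (0.863% of all, with 0.127% lower). Between late and 1-week arrays Cst7 and Ctss passed higher (0.354% of all, with 0.0424% lower). Since these contrasts chose the members, nothing is read from these counts. Cst7 at 2 weeks no longer passed without either wild-type hippocampus array or without the on-dox array, with the difference at 3.53 to 3.63. Cst7 and Ctss against 1 week did not pass without either 1-week array, nor did Ctss without the on-dox array, the second wild-type array or either 2-week array. Ctss at 5 weeks did not pass without the second wild-type array or without either 1-week array.

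By the overlap of arrays, all late arrays lay above all never-induced arrays for 7 of the 12 tested members (Cst7, Ctss, Ctsh, Ctsd, and one probe set each of Cst3, Ctsb and Lamp2), against 6.18% of all tested probe sets, and below them for 0 members, against 6.28%. At 1 week 3 members lay above all never-induced arrays (Ctsh and both Lamp2 probe sets, against 12.5% of all) and 1 below (Lipa, against 13.2%). Late arrays lay above both 1-week arrays for 7 members, Lipa among them (13.3% of all), and below for 0 (13.1%). As these contrasts chose the members, nothing is read from any of these overlap counts either. The first wild-type hippocampus array read low for Ctsd, Ctss and Cst3 (99586_at). Without it, an alternative chosen after seeing the data, 6 members lay below the never-induced arrays at 1 week (Cst7, Ctss, Ctsd, Lipa, and one probe set each of Cst3 and Ctsb), against 22.3% of all probe sets, while the late arrays still lay above for 7 (10.4%).

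In CA1, VC arrays lay above the wild-type array for 7 members (Cst7, Ctss, Ctsh, Ctsd, both Lamp2 probe sets and Ctsb 95608_at), against 29.5% of all probe sets, and below it for 3 (Lipa, Cst3 161522_i_at and Ctsb 92256_at), against 31.6%. By adjusted p in limma 2 members, Cst7 and Ctsh, passed higher (1.13% of all, with 0.127% lower). This contrast also chose the members, so nothing is read from its overlap and limma counts. The Ctsh call in CA1 was lost without any 1 of the wild-type, on-dox or 1-week hippocampal arrays, and without the second CA1 array of VC mice. The difference between the CA1 effect and the late hippocampal effect passed for 0 members (0.099% of all passed higher and 0% lower), and 1 had an unadjusted p under 0.05. For Cst7 that difference was 0.67 ± 0.58, and it was -0.01 without the first 2-week array. Between CA1 of wild-type mice and never-induced hippocampus, 2.83% of all probe sets passed higher and 8.74% lower, and the median of all was -0.13. There 1 member passed, Ctsb 92256_at, at 1.13 ± 0.23, and this call was lost without either wild-type hippocampus array. The other 2 tested Ctsb probe sets stood at 0.12 ± 0.28 and -0.70 ± 0.32 in the same comparison.

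After 3 weeks of expression and 2 weeks back on dox, the members split. The reversed array lay above all 3 never-induced arrays for Cst7, Ctss, Ctsh, Lamp2 100136_at, Cst3 161522_i_at and the untested Ctsb probe set. It lay inside the never-induced range for Ctsd, the other 3 Ctsb probe sets and Lamp2 101590_at, and below it for Lipa and Cst3 99586_at. As a share of the late difference in log2 units, 0.844 was left for Cst7, 0.748 for Cst3 161522_i_at, 0.730 for Lamp2 100136_at, 0.686 for Ctsh and 0.533 for Ctss. As a share of the 5-week difference, 0.655 was left for Cst7, 0.632 for Lamp2 100136_at, 0.485 for Cst3 161522_i_at, 0.345 for Ctsh and 0.336 for Ctss. The Cst7 shares depend on the floor. With the floor at the 40th percentile its difference from never-induced hippocampus was 1.79 reversed and 3.64 at 5 weeks (3.52 and 5.37 with the lower floor). For Ctsh the reversed array, at 0.57, lay above the 2-week difference of 0.42, so its share depends on which late time is used. For Ctsd the reversed array stood at -0.23 in log2 against the never-induced mean, where the late difference was 0.88. With 1 reversed array there is no replicate of this value, and no member passed in limma either against never-induced hippocampus (0% of all higher, 0% lower; 2 members with an unadjusted p under 0.05) or against the late arrays (0% of all higher, 0.0566% lower; 1 member). Without either 2-week array 1 member passed against never-induced hippocampus. Mice of the reversed pool were induced for 3 weeks, a time at which no whole hippocampus was sampled, so the shares set it against 2 and 5 weeks.

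Other lysosomal genes were read from lists of 81 genes on the array, 65 of them tested, with the members left out. All gene lists here and below were drawn up with earlier results of these data known, so their counts and shares are descriptions. At 1 week their median difference was 0.01 (33 of 65 positive), and 0 passed in limma (1 with an unadjusted p under 0.05). At 2 weeks the median was 0.09 with 44 of 65 positive and 0 passing (8 unadjusted), and at 5 weeks 0.24 with 47 of 65 positive and 4 passing higher. Over all tested probe sets the medians were -0.01, -0.01 and -0.03 at these times, and 0.0283%, 0.156% and 0.863% passed higher. The late arrays lay above all never-induced arrays for 19 of the 65 (6.18% of all tested probe sets) and below them for 1 (6.28% of all).

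The 4 that rose at 5 weeks were a pair of cathepsins, a membrane protein and a secreted lysosomal factor. Ctsz, a carboxypeptidase cathepsin, was 2211 at 5 weeks, against 387, 479 and 418 never-induced. Its rise at 5 weeks was 5.19-fold (2.37 ± 0.22, limma adjusted p = 0.00271), and of the 21 alternatives run only the values as deposited lost the call. Laptm5, a lysosomal membrane protein of blood-derived and microglial cells, was 5181 at 5 weeks, against 1976, 2122 and 2002 never-induced, a 2.55-fold rise (1.35 ± 0.19, limma adjusted p = 0.0119). Ctsl, a broad endopeptidase that cystatins inhibit, was 3858 at 5 weeks, against 1894, 1716 and 1676 never-induced, a 2.19-fold rise (1.13 ± 0.20, limma adjusted p = 0.0359). Grn, progranulin, was 2965 at 5 weeks, against 1410.2, 1358 and 1214 never-induced, a 2.24-fold rise (1.16 ± 0.20, limma adjusted p = 0.0387). The Ctsl and Grn calls were lost without any 1 of the wild-type, on-dox, 1-week or 2-week arrays, and the Laptm5 call without the on-dox array. Leaving out 1 array gave 1 to 6 calls among the 65 in place of 4, with 2 without either wild-type or either 2-week array and 1 without the on-dox array.

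By role, 9 other cathepsins and lysosomal proteases had a median of 0.34 at 5 weeks (7 positive, 2 passing), 15 membrane proteins 0.27 (12 positive, 1 passing) and 24 acid hydrolases and their helpers 0.26 (20 positive, 1 passing). The 16 subunits of the vacuolar ATPase, the pump that acidifies the lysosome, had a median of -0.05 (7 positive, 0 passing and 0 with an unadjusted p under 0.05). Cd68 (1.42, limma adjusted p = 0.057), the lysozyme gene Lyz2 (2.58, adjusted p = 0.094) and the asparaginyl protease Lgmn (0.89, adjusted p = 0.195) stood high without passing. Against 1 week, where 0.354% of all tested probe sets passed higher, Ctsz (1.23, limma adjusted p = 0.0431) and Laptm5 (0.97, adjusted p = 0.045) were higher on the late arrays. Leaving out 1 array gave 0 to 4 calls in that comparison, and both calls were lost without any 1 of the wild-type, on-dox or 1-week arrays or the second 2-week array, and that of Laptm5 also without the first.

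In CA1 4 of the 65 passed higher in VC mice in limma, against 1.13% of all probe sets. The median over the 65 was 0.18 (46 positive), against -0.02 over all probe sets. Ctsz was 1802 and 1587 in VC mice, against 359.8 in wild-type mice, 4.70-fold higher (2.23 ± 0.23, limma adjusted p = 0.00558). Cd68, a macrophage protein of late endosomes, was 1352 and 2179 in VC mice, against 472 in wild-type mice, 3.64-fold higher (limma adjusted p = 0.0204). Grn was 2.32-fold (adjusted p = 0.0419) and the tetraspanin Cd63 2.12-fold higher (limma adjusted p = 0.0392). VC arrays lay above the 1 wild-type array for 34 of the 65 genes (29.5% of all probe sets) and below it for 9 (31.6% of all). Leaving out 1 array gave 1 to 8 calls, with 8 without the first CA1 array of VC mice. The Cd63 and Grn calls were lost without any 1 of the wild-type, on-dox, 1-week or 2-week arrays, and the Cd68 call without the second wild-type hippocampus array. None of the 65 passed for the CA1 effect minus the late hippocampal effect in limma (4 with an unadjusted p under 0.05).

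**Figure D4:**
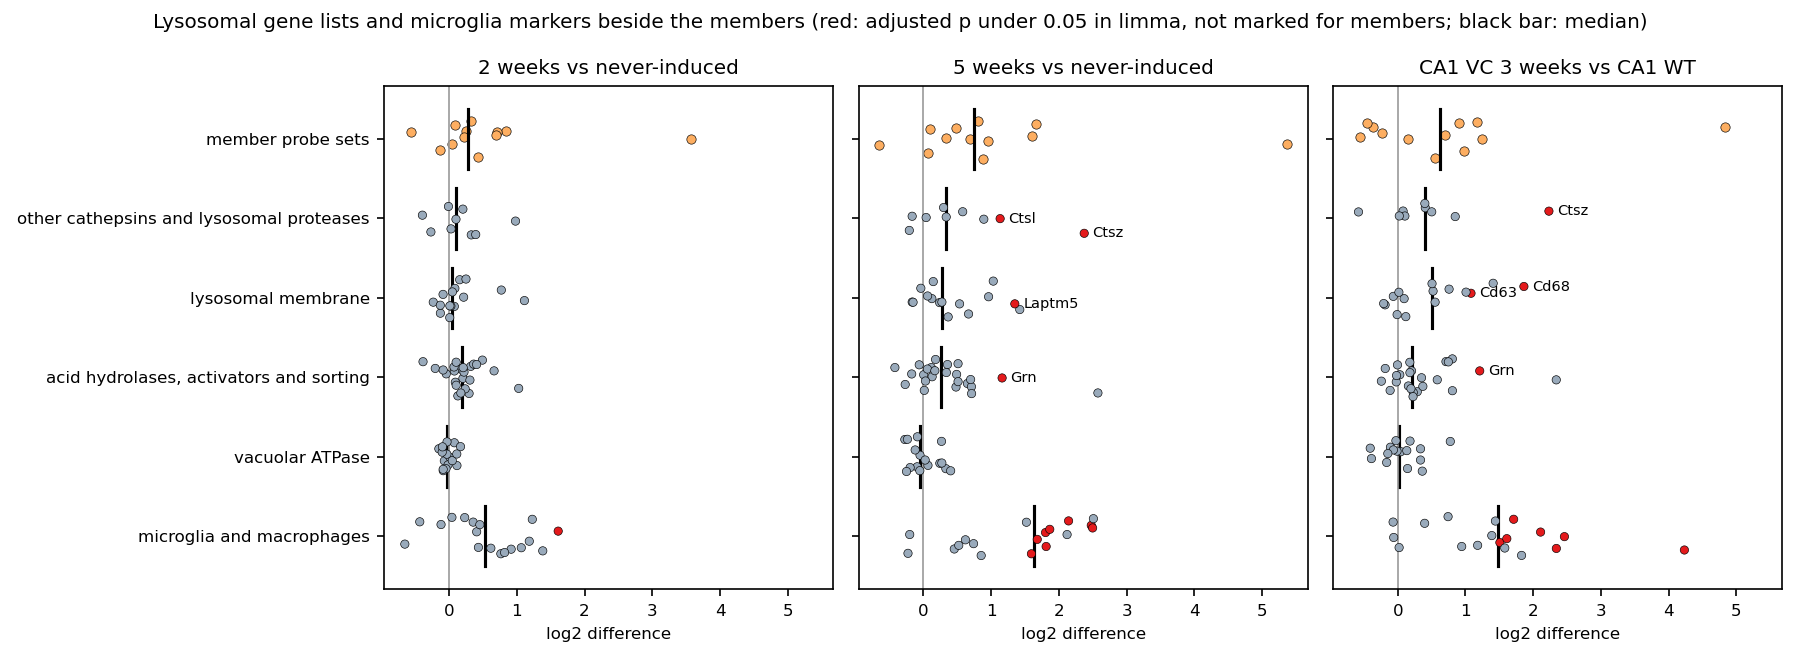
Log2 differences (horizontal axis) of the 12 tested members, of 4 lists of other lysosomal genes and of microglia and macrophage markers, at 2 weeks and 5 weeks against never-induced hippocampus and in CA1 of VC mice against wild-type mice. Black bars are medians, and red points passed an adjusted p of 0.05 in limma, which is not marked for members. The vacuolar ATPase median stays near 0 in all 3 panels, at -0.05 at 5 weeks, while the microglia marker median is 1.64 at 5 weeks.

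By median, microglia and macrophage markers were higher late after induction and in CA1 of VC mice, as Cst7 and Ctss were. Lipa was not higher in these comparisons. Of 25 on the array 18 were tested, with medians of 0.01 at 1 week and 0.54 at 2 weeks. The median was 1.64 at 5 weeks (8 passing higher, against 0.863% of all tested probe sets) and 1.48 in CA1 (7 passing higher, against 1.13% of all). Their summed scaled intensity was 18906 to 20656 on the never-induced arrays, 19422 to 20004 at 1 week, 30137 to 31746 at 2 weeks, 54787 at 5 weeks, and 24447 on the reversed array. In CA1 the sum was 74069 to 77012 in VC mice and 28321 in wild-type mice. Of the defining markers Aif1, Csf1r, Cx3cr1 and Itgam, only Itgam in CA1 of wild-type mice was at the floor on all arrays of a group. In hippocampus Cx3cr1 did not go with the list: it was 1059, 856 and 842 never-induced, 1041 and 846 at 1 week off dox, 752 and 942 at 2 weeks, 781 at 5 weeks, and 879.7 on the reversed array. In CA1 Cx3cr1 was 663 and 585 in VC mice and 324 in wild-type mice, a difference of 0.94 ± 0.25 that did not pass (limma adjusted p = 0.156). The part of these markers in the results for Cst7, the cathepsins and the other lysosomal genes was not tested.

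Other cell-type lists are given for the same arrays. The summed astrocyte markers (11 genes) were 48254 to 51850 never-induced, 58502 to 71047 at 2 weeks and 74166 at 5 weeks, and in CA1 46575 to 66985 in VC mice and 50607 in wild-type mice. Neuronal markers (8 genes) summed to 81182 to 96334 never-induced, 87341 to 93719 at 1 week, 83816 to 86054 at 2 weeks, 75070 at 5 weeks and 91022 on the reversed array. In CA1 the neuronal sum was 62361 to 67443 in VC mice and 72832 in wild-type mice. In hippocampus the neuronal sum was below the never-induced range only at 5 weeks. By gene, the neuronal markers had a median difference of -0.17 at 5 weeks (2 of 8 positive) and 0.31 in CA1 (5 of 8 positive). Choroid plexus markers (8 genes) had Ttr and Kl as the defining markers, neither at the floor. They summed to 5504 to 8380 never-induced and 15454 to 16498 at 1 week. Their sum was 6621 to 11336 at 2 weeks, 13471 at 5 weeks and 5092 on the reversed array. In hippocampus this sum was highest at 1 week, where Lipa was low and Ctsh and Lamp2 were above never-induced hippocampus. On the reversed array the sum was below the never-induced range. On that single array Ctsh and the dimmer Lamp2 probe set were above all never-induced arrays. The brighter Lamp2 probe set was inside the never-induced range on that array, and Lipa was below it. Blood markers (4 genes) summed to 6806 to 8809 never-induced, 9107 to 18229 at 1 week and 13807 at 5 weeks. In CA1 choroid plexus markers summed to 5110 to 6520 in VC mice and 5064 in wild-type mice, and blood markers to 9492 to 10489 in VC mice and 10509 in wild-type mice. T-cell and cytotoxic markers (11 genes) summed to 1113 to 1355 never-induced, 1160 to 1507 at 1 week and 1305 to 1388 at 2 weeks. Their sum was 972 at 5 weeks, where Cd3e was at the floor, and 1587 on the reversed array. In CA1 it was 945 to 1142 in VC mice and 956 in wild-type mice. The 1 tested gene of this list stood at -0.94 at 5 weeks and 1.86 in CA1. Neutrophil markers (8 genes) summed to 1670 to 1778 never-induced, 1768 to 1893 at 1 week and 2219 to 2245 at 2 weeks. Their sum was 1630 at 5 weeks and 2043 on the reversed array. In CA1 it was 1304 to 1848 in VC mice and 1391 in wild-type mice. The neutrophil marker Ngp was at the floor in every group. The part of these lists in the results was not tested.

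Among probe sets of other genes, those most like Cst7 over the 9 hippocampal arrays were Laptm5, Irf8, a transcription factor of macrophages, Gusb, the lysosomal beta-glucuronidase, Cd68, and an MHC class I probe set annotated H2-K1. Pearson's r on the log2 scale was 0.96, 0.95, 0.94, 0.94 and 0.94, in that order, and 0.87, 0.94, 0.90, 0.93 and 0.94 over all 12 arrays. These are descriptions over arrays that share the induction groups. By Spearman's rho over the 9 arrays the 5 ranked 17, 34, 23, 73 and 148 among the tested probe sets of other genes with 1 symbol.

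**Figure D5:**
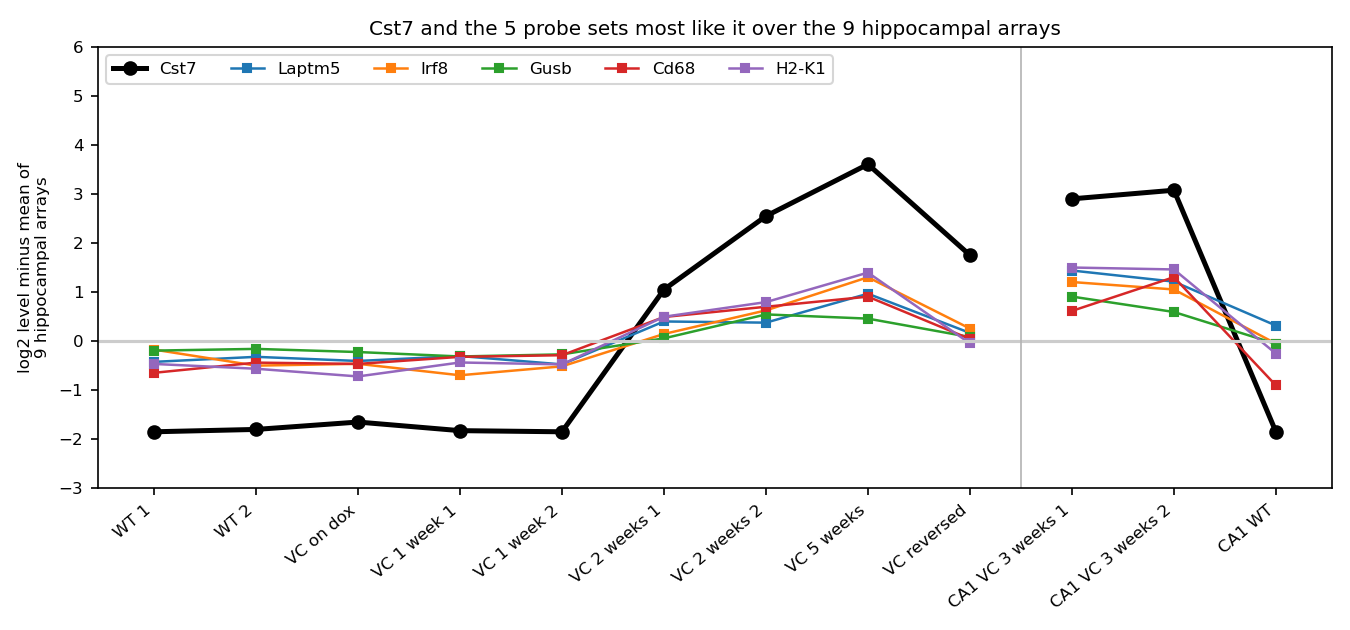
Log2 level minus the mean of the 9 hippocampal arrays (vertical axis) of Cst7 and the 5 probe sets most like it, on each hippocampal and CA1 array. On the hippocampal arrays all 6 lie low when never-induced and at 1 week and are highest at 5 weeks, except Gusb, which is highest on the second 2-week array, and Cst7 spans the widest range.

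For the other members the most similar probe sets differed from gene to gene. Ctss was most like Tyrobp, the microglial signalling adaptor (r 0.98 over the 9 hippocampal and 0.96 over all 12 arrays), and Ctsb 94831_at most like Npc2, a lysosomal cholesterol-binding protein (0.97 and 0.75). Cst3 99586_at was most like Prdx2 (0.97 and 0.27) and then Apoe (0.96 and 0.98), Ctsd most like Chga (0.97 and 0.82), and Ctsh like Ell2 (0.96 and 0.19) and then the MHC class II gene H2-Eb1 (0.95 and 0.90). Lamp2 101590_at was most like Tox4 (0.94 and 0.93), and Lipa most like Clk1 (0.96 and 0.30). Over the 9 hippocampal arrays the correlation with Cst7 was 0.93 for Ctss, 0.74 for Ctsh, 0.72 for Ctsd, 0.72 for Ctsb 94831_at, 0.71 for Lamp2 100136_at and 0.16 for Lipa. The probe sets of one gene differed here as well, with 0.74 and 0.20 for Cst3, 0.71 and 0.23 for Lamp2, and 0.09 and 0.17 for Ctsb 95608_at and 92256_at.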

How the data were processed

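The authors deposited 1 intensity per probe set and array of the Affymetrix MG-U74Av2 chip, made with GCOS per the submitters' processing notes. The software version, summary method and scaling target were not given in the sources used here. Groups follow the sample titles.

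Intensities were rescaled to a 2% trimmed mean of 1000 per array, given a floor of 65.7 (their 20th percentile over all arrays) and log2 transformed. The 66 control probe sets were left out, and probe sets above the median of their own array on at least 2 arrays were tested (7069 of 12422). One limma 3.58.1 model (R 4.3.3; 7 groups, residual df 5) with Benjamini-Hochberg adjustment over all tested probe sets gave every difference. P-values measure the spread between these pooled samples, not between mice. The fit was tested on simulated data. For a list gene the brightest probe set was used. Named were all members, list genes that passed, and at most the 3 highest and 2 lowest of a list per comparison. Gene symbols come from the platform annotation (10833 probe sets with 1 symbol, 396 with several, 1193 with none). The members and lists were chosen with earlier results of these data known. Alternatives covered scaling, floor, pseudocount, filter, model, blocks and leaving out each replicate. The number of arrays limits precision.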

Additional observations from a re-analysis of the deposited data

How the results depend on the processing

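Of the called differences of members 1 reversed, and the counts of calls moved more often. With values as deposited, which mixes 2 scales, calls were 1 in place of 3 (members) and 0 in place of 4 (other lysosomal genes) at 5 weeks, 1 in place of 2 and 0 in place of 2 for late against 1 week, 0 in place of 2 and 0 in place of 4 in CA1, and 0 in place of 1 and 0 in place of 4 for CA1 of wild-type mice against never-induced hippocampus, where Ctsb 92256_at turned to -0.59 from 1.13. With the floor at the 40th percentile they were 0 members at 2 weeks, 7 other genes at 5 weeks, and 1 member and 2 other genes in CA1. Without the filter they were 0 members at 2 weeks, 0 members and 1 other gene for late against 1 week, 7 other genes in CA1, 8 other genes between regions and 1 for the difference of effects. With the deposited scale as a block they were 0 members at 2 weeks, 2 other genes at 5 weeks, 0 other genes for late against 1 week, 1 member and 2 other genes in CA1, and 0 and 0 between regions. With wild-type hippocampus as a group apart from VC mice on dox they were 0 members at 2 weeks, 1 other gene at 5 weeks, 1 member and 0 other genes for late against 1 week, 1 member and 2 other genes in CA1, and 0 other genes between regions. Quantile normalization and eBayes with trend each left 1 member in CA1. Hippocampal arrays alone gave 1 other gene at 2 weeks and 4 for late against 1 week. Leaving out 1 array gave member calls of 0 to 1 at 2 weeks, 2 to 3 at 5 weeks, 0 to 2 for late against 1 week, 0 to 1 after reversal, 1 to 2 in CA1 and 0 to 1 between regions. For other lysosomal genes it gave 0 to 1, 1 to 6, 0 to 4, 0 to 0, 1 to 8 and 0 to 12. The cause of these moves was not tested. The replicate block over the numbered wild-type, 1-week and 2-week arrays gave 0 members at 1 week and 1 at 2 weeks, as without it, and 0 other genes at both. Same-numbered arrays deviated together at r of 0.04, 0.02 and -0.10. These values cannot settle whether same-numbered pools were handled together, which the labels do not state. Groups of 1 array (5 weeks, reversed, CA1 wild type) borrow their spread from the others, and values near the floor of Cst7 and Lipa limit the size of their differences.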

Other observations

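Genes of the disease-associated microglia signature, known from mouse models of neurodegeneration and holding Cst7 in its published form, were listed without the members. Of 17 on the array 13 were tested. At 5 weeks 2 were higher than in never-induced hippocampus, Itgax, the integrin CD11c (1.54, limma adjusted p = 0.017), and the chemokine Ccl12 (at least 7.0-fold, adjusted p = 0.0154), with a median of 0.65 over the 13 (11 positive). In CA1 of VC mice 3 were higher than in wild-type mice, Itgax (1.59, limma adjusted p = 0.0204), the tetraspanin Cd9 (1.85, adjusted p = 0.0383) and Ccl12 (at least 9.26-fold, adjusted p = 0.0128), with a median of 0.29 (8 positive). Over all tested probe sets 0.863% passed higher at 5 weeks (median -0.03) and 1.13% in CA1 (median -0.02). The lipid carrier Apoe stood at -0.60 in CA1 and did not pass. At 1 week the median was 0.00 and 0 passed in limma, also at an unadjusted p under 0.05. Ccl12 was under the floor on every never-induced array and in CA1 of wild-type mice, so its folds are lower bounds, and it entered the model through the groups where it was high. With the floor at the 40th percentile its log2 differences were 1.00 at 5 weeks and 1.40 in CA1 and did not pass. At 5 weeks both calls were lost without the on-dox array, the Itgax call also without the second wild-type array and the Ccl12 call without the first. The Cd9 call was lost without the on-dox array, the second wild-type array, either 2-week array or the second CA1 array of VC mice.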
